A study of Mus musculus with 48 samples.

Results

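The 540 shortest transcripts of a mouse embryonic stem cell RNA count table, those whose annotated length was at most 300 bases, are described here. They were chosen by that length alone out of 20171 transcripts, and no measured count entered the choice. The set held 138 small nucleolar RNAs (snoRNAs), namely 43 of the C/D family, 31 of the H/ACA family and 64 with no family in the annotation. It also held 74 microRNA hairpins, 65 pseudogenes, 11 mitochondrial tRNAs, 10 short protein-coding entries and 6 long non-coding RNA entries. A further 4 small nuclear RNAs, 2 entries for the RNA of the signal recognition particle (Rn7s1, Rn7s2), 2 entries for the RNase MRP RNA Rmrp, 1 5S ribosomal RNA copy, 1 small Cajal body RNA and 1 other small RNA completed the named classes. The other 225 members had no class in the annotation used. Of the 540, 300 were found in the RefSeq annotation of GRCm38.p6 and 240 were not.

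RNA was sequenced from lysates (inputs) and from what beads with an HA antibody recovered from them (immunoprecipitates, IP). There were 8 groups of 6 libraries, the inputs and IPs of 4 genotypes. The study concerns Tnrc6a, the mouse GW182 protein, which binds Argonaute proteins and recruits enzymes that shorten and degrade messenger RNA. All cells were of 129S6/SvEvTac origin and carried the reporter GFP_5xT71BS and a stable FLAG-Cas9::T2A::Blasticidin transgene. The genotype labels also hold the term yGlob. The untagged control carried no tag on Tnrc6a and no knockout. HA-Tnrc6a cells carried in addition HA-AVI-Tnrc6a, a tag on Tnrc6a, and the knockouts carried the tag together with Ago2-/- or Upf1-/-. Cells were grown with LIF in triplicate dishes on gelatin, and the number of clones per genotype was not stated. The p-values therefore measure the spread between these libraries, part of which may be technical.

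SnoRNAs guide the chemical modification of ribosomal RNA. Most are trimmed out of introns of longer host transcripts, sit in stable protein particles of the nucleolus, and outlive the spliced host RNA, which for many hosts is a target of nonsense-mediated decay, the pathway that needs Upf1. MicroRNA hairpins are the precursors from which a strand is loaded into Argonaute, whose partner Tnrc6a then acts on messenger RNAs that pair with the microRNA seed, and in embryonic stem cells the miR-290 cluster is the best known microRNA family.

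Mature microRNA sequences were found in RefSeq (GRCm38.p6) for 62 of the 74 hairpins, with 87 arms in all. The sequences below belong to hairpins picked as examples after their values were seen, and they are shown to say which microRNAs their rows contain. Capitals mark the seed, bases 2 to 8. The first 4 come from the miR-290 cluster and the fifth from the X chromosome, and their rows were high in the untagged IP. The next 5 belong to rows that were enriched with tagged Tnrc6a, and the last to a row that was depleted.
mmu-miR-294-3p: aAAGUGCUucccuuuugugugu
mmu-miR-295-3p: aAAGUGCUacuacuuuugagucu
mmu-miR-291b-3p: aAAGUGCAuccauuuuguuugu
mmu-miR-293-3p: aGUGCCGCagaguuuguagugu
mmu-miR-363-3p: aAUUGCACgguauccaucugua
mmu-miR-1902: aGAGGUGCaguaggcaugacuu
mmu-miR-675-5p: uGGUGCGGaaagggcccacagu
mmu-miR-700-5p: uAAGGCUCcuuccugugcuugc
mmu-miR-6340: gUCAGCAGcagcuucgcuuuggc
mmu-miR-5113: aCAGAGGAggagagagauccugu
mmu-miR-686: aUUGCUUCccagacggugaaga
The strands of miR-294 and miR-295 share the seed AAGUGCU and lie at chr7:3220691-3220712 and chr7:3220815-3220837 on the plus strand (GRCm38.p6). The strand of miR-291b-3p lies at chr7:3219529-3219550 (+), with another seed, AAGUGCA, and that of miR-293-3p at chr7:3220390-3220411 (+) has a further one. None of the 5 sequences of the enriched rows shared a seed with another of those shown. Their places were chr2:104428871-104428892 (-) for miR-1902, chr7:142577112-142577133 (-) for miR-675-5p, chr4:135416601-135416622 (-) for miR-700-5p, chr2:173701098-173701120 (-) for miR-6340 and chr15:80940049-80940071 (+) for miR-5113. Those of miR-363-3p and miR-686 were chrX:52741697-52741718 (-) and chr14:54616746-54616767 (-). A hairpin's count holds every read over the hairpin interval, so reads of the mature microRNA, its precursor and the host transcript cannot be told apart.

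Libraries numbered 1 to 3 in each group held 11471544 to 19595405 counts and those numbered 4 to 6 held 25724085 to 73845953, so the numbers form 2 sets of different depth, which every model below kept as a term. The members took 0.249 to 0.279% of the counts in untagged IPs, 0.148 to 0.186% in HA-Tnrc6a IPs and 0.248 to 0.381% in inputs. A member had a median of 18 counts per library. The mean was under 10 for 119 members and over 100 for 73, and 156 members were at 0 in at least 1 library. Transcripts of all lengths were tested together. The tagged gene checked the IPs, with Tnrc6a at 8841 to 34244 CPM (counts scaled to a common library size) in HA-Tnrc6a IPs and 56.6 to 105 CPM in untagged IPs. Ago2 stood at 92.8 to 136 CPM in the Ago2 knockout inputs and at 205 to 323 CPM in HA-Tnrc6a inputs. Upf1 RNA was not lower in the inputs labelled Upf1 knockout (122 to 142 CPM) than in HA-Tnrc6a inputs (74.4 to 99.6 CPM). This level alone does not show whether Upf1 protein was lost, and the label of that group is the submitters'. Stem cell markers were at 6777 to 8465 summed CPM in the inputs (9 of 9 present), while markers of mesoderm (2 of 2) summed to 0.609 to 1.71 CPM, endoderm (3 of 3) to 4.52 to 41.3 CPM, fibroblasts (3 of 4) to 20.5 to 36.7 CPM and neural cells (2 of 2) to 34.9 to 102 CPM, and those of trophoblast (0 of 2) were not among the rows. In such bulk lysates, fewer cells of a type and less RNA per cell cannot be told apart. Library 3 of the HA-Tnrc6a inputs stood apart in Rn7s1, Rn7s2, Rmrp and the hairpin Mir6236, and library 1 of the untagged IPs in Mir6236.

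The background of the beads, untagged IP against untagged input, was high for snoRNA rows. Here and below, a snoRNA row like a hairpin row holds every read over its interval. Reads of the mature snoRNA and of unspliced host RNA therefore cannot be told apart in it. Of 496 members tested, 179 were higher in the IP and 36 lower at an adjusted p under 0.05, where 18% of all 19299 tested transcripts were higher and 17.8% lower. At least 2-fold higher were 128 members, against 3.27% of all transcripts. The next longer rows, of over 300 to 500 bases, gave 70 higher and 109 lower of 785 tested, and 12 of them were at least 2-fold higher. Of these 128, 88 were snoRNAs and 40 came from the 358 other members tested. Among the snoRNAs, 110 of 138 tested were higher and none lower by edgeR (116 and 0 at an unadjusted p under 0.05, 110 and 0 by DESeq2), with a median log2 difference of 1.24 against -0.03 for all transcripts. They were 35 of 43 C/D members (median 1.29), 21 of 31 H/ACA members (median 0.93) and 54 of 64 others (median 1.32). Outside the snoRNAs, 69 members were higher and 36 lower of 358 tested, and the median was 0.03. With library totals in place of TMM scaling, which moves the median of all transcripts from -0.03 to -0.20, 147 members were higher and 71 lower, and of the snoRNAs 94 were higher and 1 lower. The library sets differed for 17 members, and for 2.86% of all transcripts.

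**Figure D1:**
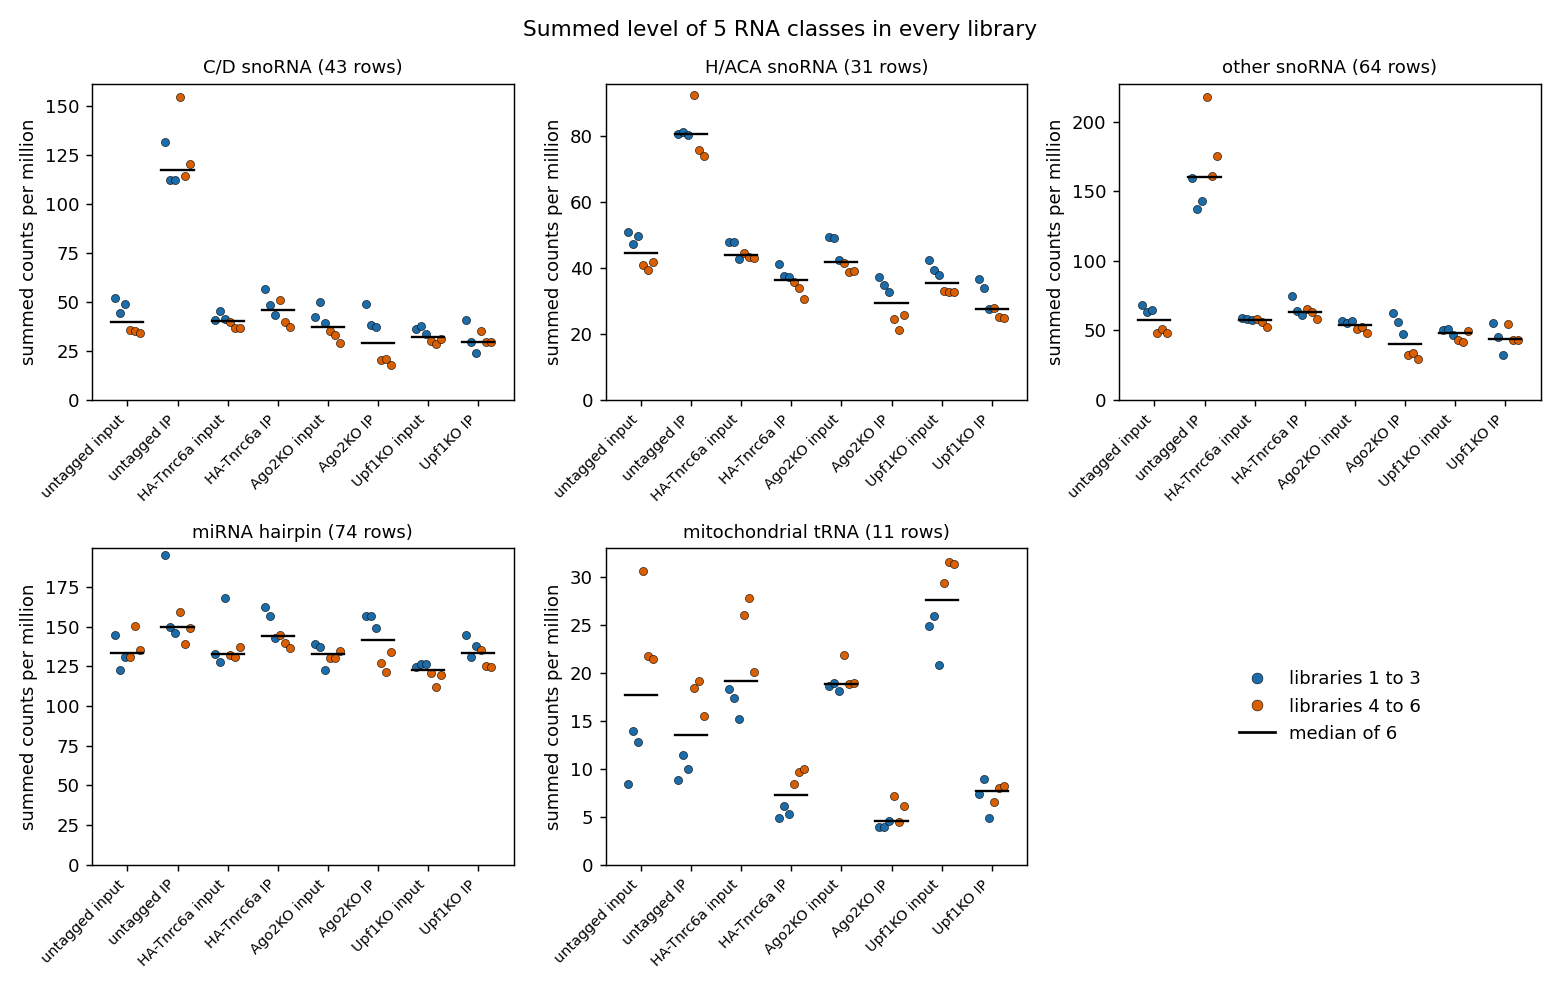
Summed CPM (counts scaled to a common library size) of 5 classes of short RNA in every library of the 8 groups; points are libraries (blue, numbers 1 to 3; orange, numbers 4 to 6) and the bar is the median of 6. The 3 snoRNA classes are highest in the untagged IPs, where the C/D sum is 112 to 155 CPM against 34.1 to 52.0 CPM in the untagged inputs.

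Snord47, a C/D snoRNA within the span of Gas5 at chr1:161038092-161038156, was at 11.5, 14.0 and 19.2 CPM (lowest, median, highest of 6) in untagged IPs and at 1.67, 2.38 and 3.72 CPM in their inputs. Every IP library lay above every input. Its log2 difference was 2.55 ± 0.14 (SE, adjusted p = 4.11e-11). Snord22, within the span of Snhg1 at chr19:8725866-8725991, was at 12.8, 16.6 and 21.8 CPM in untagged IPs and at 3.14, 4.19 and 7.37 CPM in inputs. The groups did not overlap here either, and the log2 difference was 1.87 ± 0.12, with 1.25 in libraries 1 to 3 and 2.48 in libraries 4 to 6. The highest called value of all named snoRNAs was that of Gm23246, a neighbour of Snord22 at chr19:8725594-8725660, at 2.58 ± 0.19 (adjusted p = 1.85e-09). Snord80 (2.31 ± 0.17) and Snord12 (1.72 ± 0.12) rose as well, as did Snora73a (1.32) and Snora73b (0.84 ± 0.12), a pair of H/ACA snoRNAs within the span of Snhg3 that are known for a role in ribosomal RNA cleavage. Snora15, an H/ACA snoRNA within the span of Cct6a, went the other way in level, at 6.79, 8.80 and 11.3 CPM in IPs and 9.29, 10.2 and 11.3 CPM in inputs. Its groups overlapped and it did not pass the test (-0.21 ± 0.11).

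The transcripts whose span contains these snoRNAs were read beside them. The strands of snoRNA and host could not be compared for any pair, so a host may lie on the opposite strand. Among 130 snoRNAs whose host transcript, found by position, was also tested (62 hosts, so that many share a host), 106 were higher in the untagged IP, 35 hosts were higher and 12 lower, and 79 pairs had both higher. In 7 pairs the snoRNA was higher and the host lower. The 8 snoRNAs within Gas5 stood between 1.50 and 2.55 and Gas5 itself at 1.34. Snhg1 stood at 1.62, Zfas1 at 1.38, Snhg3 at 0.89 and Nop56, a protein of C/D particles, at 0.74. Across the 130 pairs the log2 values of snoRNA and host had a Pearson r of 0.566, with the same libraries behind both axes.

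**Figure D2:**
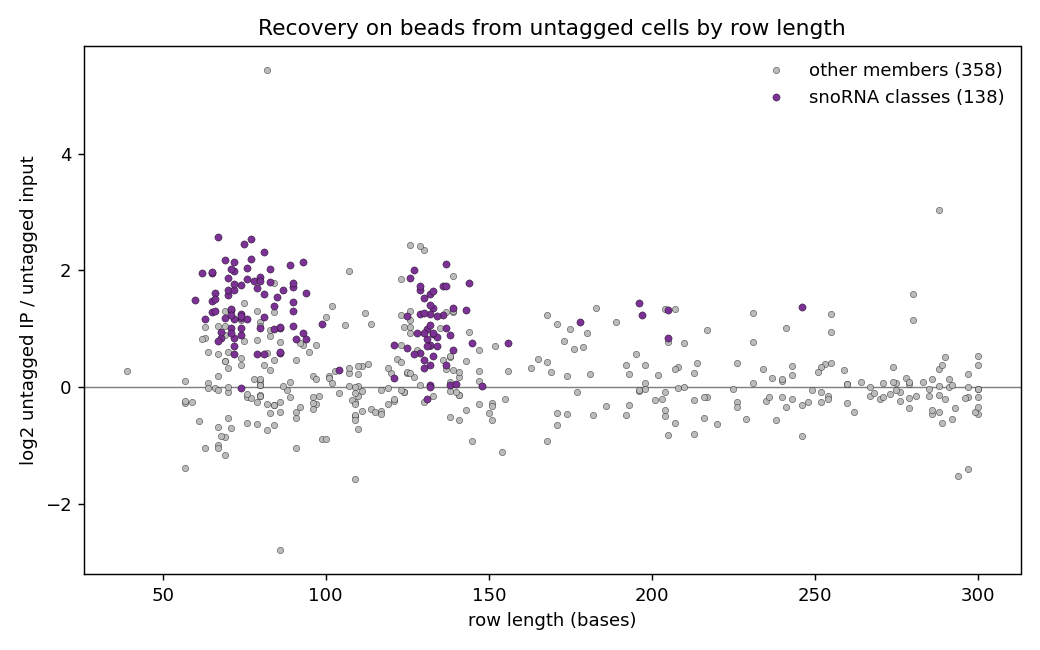
Log2 difference of untagged IP over untagged input (y) against row length in bases (x) for the 496 members tested; purple points are the 138 snoRNAs and grey points the other 358. The snoRNAs lie mostly above 0 at all lengths they cover, while the other members spread around 0; the highest point, Mir705, rests on few counts (5.44 ± 1.21).

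Length was then read with and without the snoRNAs. The median log2 difference of members of up to 100 bases was 0.80, and 0.02 with the snoRNAs left out. For members of over 100 to 200 bases these medians were 0.36 and 0.19, and 32 of the 135 outside the snoRNAs were higher and 11 lower. For those of over 200 to 300 bases the medians were -0.03 and -0.04. The entries nearest the limit are given as they stand. At 300 bases, Gm10263, Gm15654 and Gm17349 had bead values of -0.03, 0.52 and -0.46 and values of -0.73, -0.52 and 0.34 with tagged Tnrc6a (defined below). Just past the limit, Gm12276 and Gm44921 had bead values of 0.36 and -1.47 and tagged values of -1.43 and 0.67, and Gm49432 was not tested.

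The other classes were recovered by the beads in both directions. Of 63 hairpins tested, 16 were higher and 6 lower, and of 64 pseudogenes, 6 and 9. Of 196 unclassified members, 43 were higher and 15 lower. Over all transcripts 18% were higher and 17.8% lower. Among the 11 mitochondrial tRNAs, mt-Tl1, the first of the leucine tRNAs, rose (0.80 ± 0.18, adjusted p = 0.00162), and the tRNAs for proline (mt-Tp, -0.99), glycine (mt-Tg, -0.83) and alanine (mt-Ta, -0.85) fell. Bc1, a cytoplasmic RNA copied by RNA polymerase III and best known from dendrites of neurons, was at 1.53, 2.89 and 5.28 CPM in untagged IPs and at 4.13, 4.95 and 8.22 CPM in inputs. These ranges overlap, and Bc1 fell by 0.92 ± 0.16 on the log2 scale (adjusted p = 9.12e-05). ND4L, the mitochondrial gene for a complex I subunit, stood at -1.40 ± 0.15, and the pseudogene Gm10222 at chr1:24612404-24612700 at -1.53 ± 0.15. The counts of near-identical copies such as mitochondrial genes and their nuclear pseudogenes are uncertain.

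Among hairpins, the miR-290 rows showed the bead signal too. Mir291b was at 4.76, 6.92 and 8.88 CPM in untagged IPs and at 1.53, 3.17 and 4.29 CPM in inputs, without overlap (log2 1.31 ± 0.16, adjusted p = 1.58e-06). Mir293 (1.04 ± 0.31), Mir294 (1.29 ± 0.25) and Mir295 (1.31 ± 0.23) rose with it, as did Mir363 (1.44 ± 0.34) on the X chromosome. These hairpins, and the others described with sequences above, are named because their values had been seen.

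Enrichment with Tnrc6a asks which RNAs were recovered with the tag beyond the beads alone. It is the log2 IP over input of HA-Tnrc6a cells less that of untagged cells. Of 530 members tested, 59 were higher and 232 lower at an adjusted p under 0.05, where 29.8% of all 19993 tested transcripts were higher and 32.2% lower. At least 2-fold lower were 174 members, against 4.95% of all transcripts, and at least 2-fold higher were 53, against 16.5%. The members' median was -0.81 and that of all transcripts -0.10. The rows of over 300 to 500 bases gave 73 higher and 370 lower of 820, with a median of -0.58.

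Most snoRNAs were lower, 31 of 43 C/D members (median -1.28), 23 of 31 H/ACA members (median -1.29) and 49 of 64 others (median -1.38), in all 103 of 138. None was higher by edgeR, at an unadjusted p under 0.05, or under any alternative run, DESeq2 included. This value subtracts the untagged cells, so the levels in both are given. The summed C/D level was 37.2, 45.8 and 56.6 CPM (lowest, median, highest) in HA-Tnrc6a IPs and 36.7, 40.2 and 45.6 CPM in their inputs, 2 ranges that overlap. In untagged IPs it was 112, 118 and 155 CPM, above every HA-Tnrc6a IP. The H/ACA sum was 30.7, 36.5 and 41.3 CPM in the HA-Tnrc6a IPs, below all HA-Tnrc6a inputs (42.9, 43.9 and 47.9 CPM), and 73.9, 80.5 and 92.4 CPM in untagged IPs. Outside the snoRNAs 59 members were higher and 129 lower of 392, with a median of -0.51.

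Among single snoRNAs, Snord47 was at 3.11, 4.02 and 9.48 CPM in the HA-Tnrc6a IPs and at 1.79, 2.17 and 3.33 CPM in HA-Tnrc6a inputs. These ranges overlap at their edges, and the IPs lie below all untagged IPs. Its enrichment was -1.43 ± 0.30 (adjusted p = 0.000221). Snord22 was at 4.86, 6.08 and 7.91 CPM in the HA-Tnrc6a IPs and at 4.03, 4.44 and 5.99 CPM in inputs (-1.46 ± 0.17), and Snord12 at 2.58, 2.83 and 4.09 CPM and 1.62, 2.39 and 2.78 CPM (-1.24 ± 0.20). In each of the 3, all untagged IPs lay above all tagged IPs. Snora15, which the beads alone did not enrich, was at 6.37, 8.40 and 9.33 CPM in the HA-Tnrc6a IPs and 9.96, 10.1 and 11.8 CPM in inputs, an enrichment of -0.14 ± 0.14, and its host Cct6a stood at -0.14.

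The hairpin rows moved in both directions, 18 higher and 22 lower of 72 tested, where 29.8% of all transcripts were higher and 32.2% lower. Mir6340, on the minus strand at chr2:173701030-173701148 and opposite to Rab22a, was at 13.6, 18.2 and 24.2 CPM in the HA-Tnrc6a IPs, at 0.793, 1.20 and 1.67 CPM in untagged IPs and at 0.491, 1.14 and 1.34 CPM in HA-Tnrc6a inputs. All tagged IPs lay far above the other groups (log2 3.79 ± 0.26, adjusted p = 6.89e-15), and Rab22a stood at 3.55. Mir1902, within Hipk3 on the same strand at chr2:104428861-104428940, was at 1.17, 1.55 and 1.74 CPM in tagged IPs and at 0 to 0.290 CPM in untagged IPs (6.14 ± 1.52, adjusted p = 0.000772), and Hipk3, a kinase gene, at 4.60. The size of that fold depends on the few counts of the other groups.

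Mir700, within Rcan3 at chr4:135416555-135416633 (-), was at 1.07, 1.53 and 2.56 CPM in tagged IPs and at 0 to 0.352 CPM in untagged IPs (3.96 ± 0.64), with Rcan3 at 2.33. Mir5113, within Tnrc6b at chr15:80940039-80940120 (+), a gene of the same family as Tnrc6a, was at 1.43, 1.78 and 2.18 CPM against 0 to 0.793 CPM (3.04 ± 0.60), with Tnrc6b at 2.44. In both the groups did not overlap. Mir675, the hairpin in the imprinted RNA H19, was at 0.0415 to 3.67 CPM in tagged IPs and 0 to 0.176 CPM in untagged IPs, which overlap (4.31 ± 1.35, adjusted p = 0.00619), with H19 at 4.19. Mir3063 (1.59 ± 0.16), within Igf2bp1 (1.87), and Mir5114 (0.90 ± 0.18), within Scd2 (1.10), also rose.

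The 17 lower hairpins with a tested host lay in hosts that were lower too. Mir686, within Psmb5, a proteasome subunit gene, was at 8.63, 10.1 and 10.6 CPM in the HA-Tnrc6a IPs and at 18.6, 20.1 and 21.6 CPM in inputs, with no overlap, and at 15.6, 17.5 and 23.2 CPM in untagged IPs. Its enrichment was -0.93 ± 0.10 (adjusted p = 4.34e-10) and that of Psmb5 -0.999. Mir8094 stood at -0.48 and its host Ddx39b, an RNA helicase gene, at -0.57. Over 60 hairpins with a tested host (54 hosts), 16 pairs were both higher, 17 both lower and none called in opposite directions, and hairpin and host values had a Pearson r of 0.947, and 0.944 over the 36 pairs on the same strand. The points share libraries, and the counts of a hairpin and its host come from overlapping stretches of the genome. Over 130 snoRNA pairs r was 0.184. Both were lower in 91 of them, and the 6 snoRNAs within the 3 hosts that were higher were not called. One such host, 2410002F23Rik, stood at 2.59, and its 4 snoRNAs between -1.13 and -0.56.

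**Figure D3:**
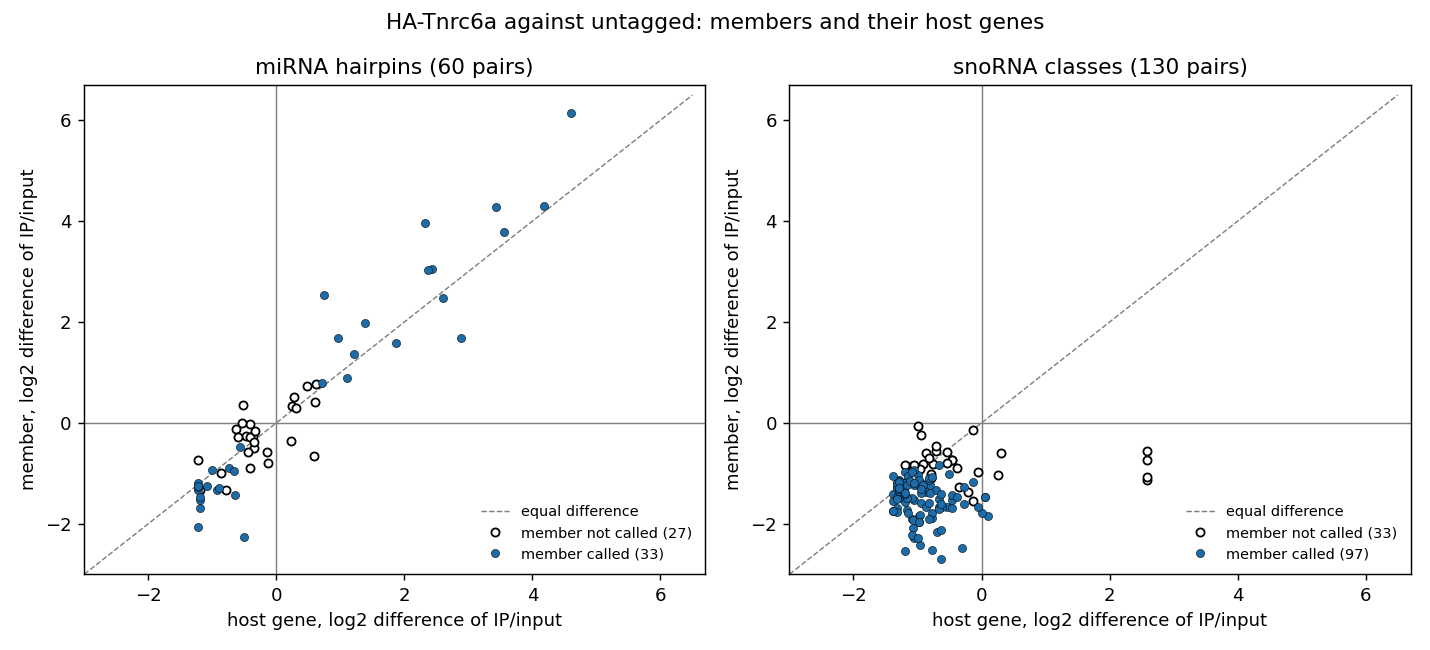
Enrichment with Tnrc6a (log2, HA-Tnrc6a less untagged cells) of a short RNA (y) against that of the host transcript around it (x), for 60 microRNA hairpins (left) and 130 snoRNAs (right); filled marks are members called at an adjusted p under 0.05 (33 hairpins, 97 snoRNAs) and open marks the others, and the dashed line is equal enrichment. Hairpins follow the line over its whole range, while snoRNAs lie mostly below it whatever their host does.

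The miR-290 hairpins named above as high in the untagged IP were low in this comparison. Mir291b was at 2.11, 2.59 and 3.57 CPM in the HA-Tnrc6a IPs and at 1.98, 2.61 and 3.52 CPM in inputs, 2 groups that coincide, and its enrichment was -1.27 ± 0.23. Mir294 (0.477, 0.770 and 1.32 CPM in tagged IPs, 0.452, 0.790 and 1.05 CPM in inputs) stood at -1.20 ± 0.38 and Mir295 at -1.33 ± 0.34. Mir293 (-2.06 ± 0.53) and Mir363 (-2.53 ± 0.51) also fell. Mir292b, read from the minus strand where the other miR-290 hairpins named here lie on the plus strand, passed narrowly (-1.26, adjusted p = 0.0436). It lost the call when any of 17 libraries was left out, for example library 3 of the untagged IPs (-1.06, adjusted p = 0.101).

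Among members with a mean log2 CPM of at least 0, the 5 with the largest enrichment were 4 unclassified RNAs and a ribosomal RNA copy. Rarer members such as Mir1902, above, reached values as high. The 5S ribosomal RNA copy, n-R5s185 at chr4:53860652-53860770, was at 6.19, 8.41 and 11.4 CPM in the HA-Tnrc6a IPs, at 0 to 0.470 CPM in untagged IPs and at 0.0262 to 0.437 CPM in HA-Tnrc6a inputs. The groups were far apart (log2 6.10 ± 0.82, adjusted p = 6.62e-08), and Tmem38b, within whose span it lies, stood at 4.00. Gm49476 was at 14.9, 16.5 and 18.7 CPM in tagged IPs, at 0.865, 1.15 and 1.35 CPM in their inputs and at 0.226 to 1.15 CPM in untagged IPs, again without overlap (4.49 ± 0.31, adjusted p = 1.38e-14). Gm43493 was at 7.11, 8.72 and 9.40 CPM in tagged IPs against 0.181 to 0.969 CPM in untagged IPs (4.28 ± 0.56), and Gm27483 (4.59 ± 0.70) and Gm44311 (3.85 ± 0.45) rose too. These 4 unclassified members had no matched RefSeq entry, so no function or position is given. Of 218 unclassified members tested, 36 were higher and 67 lower, where 29.8% and 32.2% of all transcripts were.

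Gm26377 and Gm22133, both unclassified, held 32.9% of all counts of the members. Gm26377 was at 266, 310 and 369 CPM in the HA-Tnrc6a IPs and at 553, 595 and 633 CPM in their inputs, with no overlap, against 485, 564 and 618 CPM in untagged IPs and 621, 635 and 683 CPM in untagged inputs. It stood at -0.70 ± 0.08 (adjusted p = 1.27e-09). Gm22133, at 146, 221 and 273 CPM in the HA-Tnrc6a IPs and 286, 334 and 383 CPM in inputs, did not pass (-0.19, adjusted p = 0.0635), and the beads alone recovered it at -0.50 (adjusted p = 9.64e-06).

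No mitochondrial tRNA was higher with tagged Tnrc6a by edgeR, at an unadjusted p under 0.05 or by DESeq2, and 6 of 11 were lower, namely mt-Tg (-1.59 ± 0.35), mt-Ti (-1.62), mt-Ty (-1.51), mt-Tl1 (-1.23), mt-Td (-1.22) and mt-Tp (-0.90). Their summed level was 4.90 to 10.0 CPM in the HA-Tnrc6a IPs and 15.2 to 27.8 CPM in the inputs. Of 9 short protein-coding entries tested, Gm10197 rose (3.09 ± 0.19, adjusted p = 1.52e-15) and 6 fell, among them ATP8, a mitochondrial subunit of ATP synthase (-1.28), and Snurf (-0.38), which is read from the same transcript as Snrpn (-0.36). Of 65 pseudogenes 25 fell, and only Gm15694 rose (3.07 ± 0.57). Over all transcripts, to set beside these class counts, 29.8% were higher and 32.2% lower. Among the long non-coding entries Gm20005 rose (2.65 ± 0.34), and Bc1 (-0.90), Gm33051 (-1.25) and Snhg9 (-1.52) fell. Bc1 was at 0.789, 1.20 and 2.11 CPM in the HA-Tnrc6a IPs and at 3.79, 4.05 and 6.77 CPM in inputs, which do not overlap. The small nuclear RNA entry Gm23497 was higher (0.69 ± 0.14, adjusted p = 8.16e-05) and lies within Tfcp2l1 (0.55), the gene of a stem cell transcription factor.

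The RNAs of the signal recognition particle and of RNase MRP were too uneven between libraries to be called. Rn7s1, which helps target secreted proteins to the endoplasmic reticulum, was at 0.208, 0.502 and 4.82 CPM in the HA-Tnrc6a IPs and at 0.928, 1.50 and 16.1 CPM in the inputs, the highest being library 3. Its enrichment was -1.71 ± 1.18 (adjusted p = 0.223), and that of Rn7s2 -1.82 (adjusted p = 0.202). Mir6236 passed (-2.38 ± 0.99, adjusted p = 0.0465) with -4.74 in libraries 1 to 3 and -0.01 in libraries 4 to 6. Without library 1 of the untagged IPs it stood at -1.50 (adjusted p = 0.170), and it lost the call in 17 such omissions. The pseudogene Gm12896 (-2.19) likewise had -4.06 and -0.31 in the library sets, lost the call in 10 omissions, and stood at -1.84 (adjusted p = 0.133) without library 1 of the untagged IPs.

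Both knockouts were set against the same untagged libraries, so the following values stand side by side with those above and are not independent of them. In Ago2 knockout cells 62 members were higher and 273 lower of 530 tested, where 31.5% and 33.2% of all transcripts were. The snoRNAs were lower in 118 of 138 (median -1.82). Of 73 hairpins 18 were higher and 27 lower. Mir6340 stood at 3.86, Gm49476 at 4.42 and n-R5s185 at 5.58, and Mir6340 was at 14.6, 23.1 and 29.3 CPM in these IPs, a range that overlaps with that of HA-Tnrc6a IPs. Here Rn7s1 (-3.58 ± 0.81), Rn7s2 (-4.34 ± 0.96) and both Rmrp entries (-4.01 and -4.10), which share a symbol, were lower. The untagged libraries subtracted were uneven for these RNAs. Untagged IP over input had medians of 2.19 (signal recognition particle) and 1.85 (RNase MRP) in libraries 1 to 3. In libraries 4 to 6 these medians were -2.38 and -2.17. Compared directly with HA-Tnrc6a cells (recovery, below), none of these entries was called.

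In cells labelled Upf1 knockout 67 members were higher and 226 lower of 534 tested, where 31.8% of all transcripts were higher and 31.8% lower. The snoRNAs were lower in 109 of 138 (median -1.52), and of 73 hairpins 17 were higher and 23 lower. Among members with a mean log2 CPM of at least 0, the largest values were those of n-R5s185 (5.70), Gm43493 (4.77), Gm49476 (4.54) and Gm44311 (4.22), and Mir6340 stood at 3.72 with 13.4, 17.6 and 20.9 CPM in these IPs.

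Whether recovery with tagged Tnrc6a depended on Ago2 or Upf1 was compared between tagged genotypes, as the log2 IP over input of a knockout less that of HA-Tnrc6a cells. For Ago2, 3 members were higher and 33 lower of 522 tested, where 9.09% of all transcripts were higher and 12.3% lower. Of 71 hairpins none was called by edgeR, 7 had an unadjusted p under 0.05, and DESeq2 called 2 lower. The median standard error was 0.43 for members and 0.13 for all transcripts tested, so smaller differences of members could be missed. Of the 53 hosts tested beside 59 of these hairpins, 5 were higher and 16 lower. Of the 33 lower members, 11 were snoRNAs, 6 of them C/D members. Snord80, a symbol that 2 entries carry and here the one with a RefSeq match, was at 0.816, 1.50 and 2.49 CPM in Ago2 knockout IPs and at 1.95, 2.62 and 4.20 CPM in the HA-Tnrc6a IPs, which overlap, while its inputs were alike at 0.787, 1.47 and 2.36 CPM and 1.04, 1.56 and 1.92 CPM. It fell by 1.09 ± 0.28 on the log2 scale (adjusted p = 0.00421). Snord78 (-0.86 ± 0.20) and Snord47 (-0.84, adjusted p = 0.0480), which like Snord80 lie within the span of Gas5, fell too.

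Gm26377 was at 231, 258 and 285 CPM in Ago2 knockout IPs, a range that overlaps with that of HA-Tnrc6a IPs, and its recovery fell by 0.31 ± 0.08 (adjusted p = 0.0062). That of Gm22133 fell by 0.32 ± 0.08 (adjusted p = 0.00186). Gm10197 (-0.71 ± 0.14) and the unclassified AC120159.1 (-1.46 ± 0.29, adjusted p = 0.000285) were lower as well. The 3 higher members were Gm47280 (1.93 ± 0.63), Gm48667 (1.37 ± 0.39) and Gm15027 (0.52 ± 0.19, adjusted p = 0.0464). Gm15027 lost its call in 14 omissions of 1 library, and stood at 0.33 (adjusted p = 0.205) without library 3 of the Ago2 knockout IPs.

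For cells labelled Upf1 knockout, 2 members were higher and none lower of 516 tested by edgeR, where 2.92% of all transcripts were higher and 1.57% lower, and 31 members had an unadjusted p under 0.05. They were the unclassified Gm24563 (2.36 ± 0.57, adjusted p = 0.0115) and Gm28033 (1.14 ± 0.33, adjusted p = 0.0414). Gm28033 lost its call without library 3 of the HA-Tnrc6a inputs (1.11, adjusted p = 0.0843). It also lost the call with RLE size factors (adjusted p = 0.0563), library totals (0.0609), no count filter (0.0565) and TMM from long genes (0.0631). The same held for all 48 libraries in 1 fit (0.146) and for libraries 1 to 3 (0.243) or 4 to 6 (0.469) alone. DESeq2 gave no adjusted p for either and called 2 others lower, Mir5114 (-0.44, adjusted p = 0.0308) and Snord78 (-0.73, adjusted p = 0.0328), which edgeR placed at -0.42 (adjusted p = 0.0742) and -0.71 (adjusted p = 0.0725).

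The inputs labelled Upf1 knockout differed from HA-Tnrc6a inputs in 138 of 465 members tested. Of these 42 were higher and 96 lower, where 29.5% of all transcripts were higher and 29% lower. The members' median was -0.19 and that of all transcripts -0.02. At least 2-fold higher were 14 members (2.18% of all transcripts) and at least 2-fold lower 12 (3.1%). Neural markers also differed between these inputs, at 34.9 to 59.0 summed CPM in those labelled Upf1 knockout and 61.7 to 78.9 CPM in HA-Tnrc6a (mean over all inputs 70.1 CPM for Tubb3 and 0.659 for Pax6), and endoderm markers stood at 7.22 to 41.3 CPM and 13.4 to 20.2 CPM. Their part in the results was not tested. The strongest rises were in unclassified RNAs without a RefSeq match. Gm27286 was at 5.20, 6.40 and 8.63 CPM in HA-Tnrc6a inputs and at 27.9, 31.9 and 46.0 CPM in inputs labelled Upf1 knockout. Every library of the second group lay above every one of the first (log2 2.32 ± 0.07, adjusted p = 4.13e-23), as did the IPs of those cells at 21.7 to 33.5 CPM. Gm28030 was at 2.94, 3.39 and 3.77 CPM and at 13.1, 15.5 and 19.0 CPM, again without overlap (2.20 ± 0.08, adjusted p = 8.69e-27). Gm27957 was at 0.0565, 0.232 and 0.451 CPM and at 0.877, 1.62 and 1.93 CPM (2.53 ± 0.30, adjusted p = 6.34e-10). Gm27997 (1.58 ± 0.15) and Gm21769 (1.24 ± 0.20) rose as well.

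**Figure D4:**
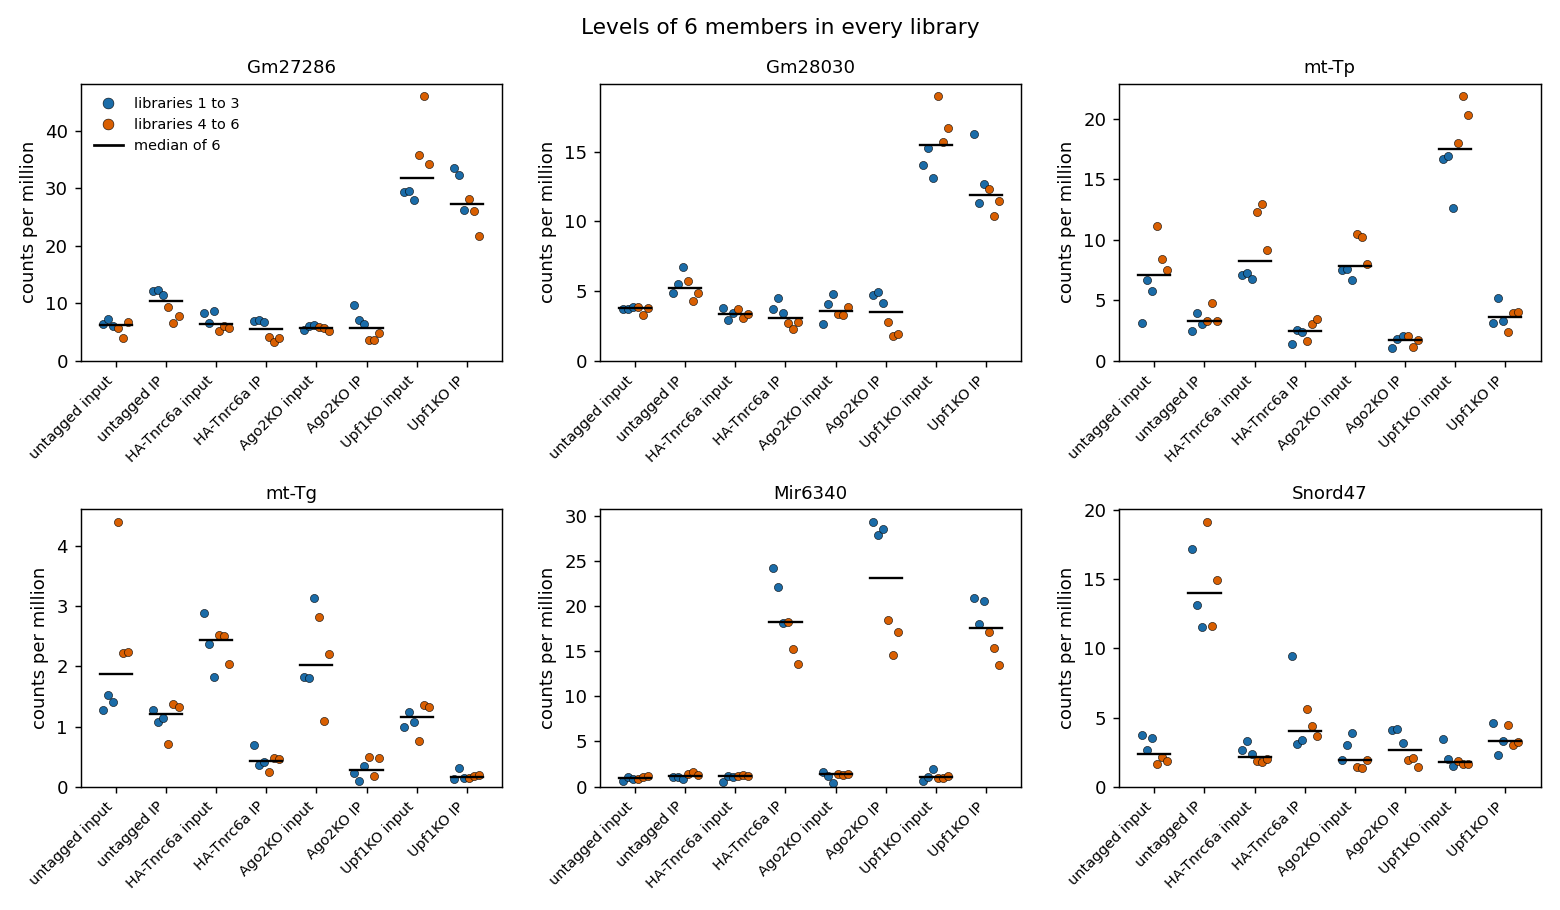
Levels in CPM of 6 members (Gm27286, Gm28030, mt-Tp, mt-Tg, Mir6340, Snord47) in every library of the 8 groups, with bars at the group medians. Gm27286 and Gm28030 are high in inputs and IPs labelled Upf1 knockout, Mir6340 in all tagged IPs and Snord47 in the untagged IPs.

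Mitochondrial tRNAs changed in both directions in those inputs. The proline tRNA mt-Tp was at 6.76, 8.24 and 12.9 CPM in HA-Tnrc6a inputs and at 12.6, 17.5 and 21.9 CPM in inputs labelled Upf1 knockout, which overlap slightly (0.97 ± 0.08, adjusted p = 1.16e-11). The glycine tRNA mt-Tg was at 1.82, 2.44 and 2.89 CPM and at 0.759, 1.16 and 1.36 CPM, with no overlap (-1.06 ± 0.18, adjusted p = 1.34e-06). The tRNAs for alanine (mt-Ta, 0.48) rose, and those for aspartate (mt-Td, -1.47 ± 0.28) and glutamate (mt-Te, -1.95 ± 0.60) fell. Of 60 pseudogenes 23 fell and Gm10060 rose (1.01). Of 192 unclassified members 31 rose and 30 fell, where 29.5% and 29% of all transcripts did. Bc1 (-0.81), Gm20005 (-1.30), Tma7-ps (-0.96) and Gm22133 (-0.27) were lower.

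Among 58 hairpins 10 fell and 5 rose, where 29% and 29.5% of all transcripts did. The 5 were Mir196a-1 (1.06), Mir8108 (1.10), Mir546 (0.71), Mir678 (0.70) and Mir5114 (0.32). Mir6516 was at 1.07, 1.89 and 3.17 CPM in HA-Tnrc6a inputs and at 0.474, 0.937 and 1.18 CPM in those labelled Upf1 knockout, which overlap (-1.24 ± 0.21). Its host Snhg20, a snoRNA host transcript, stood at -0.09.

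Of 120 snoRNAs tested in these inputs, 24 were lower and only Snora64 was higher (0.78 ± 0.28, adjusted p = 0.0142), with a median of -0.30. Snora64 lost its call without library 3 of the HA-Tnrc6a inputs (0.59, adjusted p = 0.0709). In 52 of 112 pairs with a tested host, the host was higher (17 hosts, 0.07 to 2.45, median 0.93). The snoRNAs of these 52 pairs had a median of -0.30, and of them none was higher (none also at an unadjusted p under 0.05), 9 were lower and 43 did not pass. Zfas1 rose by 2.31 with its 3 snoRNAs between -0.37 and 0.21, and 2410006H16Rik by 2.45 with its 3 between -0.77 and -0.14. The 5 snoRNAs within Snhg12 (1.42) lay between -0.35 and -0.11. Of these, 2 are the Snora16a entries, whose counts sum to 757 and 759 over all libraries and whose values here are identical, so they are not independent. The 8 within Snhg1 (1.19) lay between -0.63 and -0.01, and the 8 within Gas5 (0.79) between -0.38 and -0.05. Eif4a2, a gene for a translation factor, stood at 0.93 and its 5 snoRNAs between -0.44 and 0.33.

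**Figure D5:**
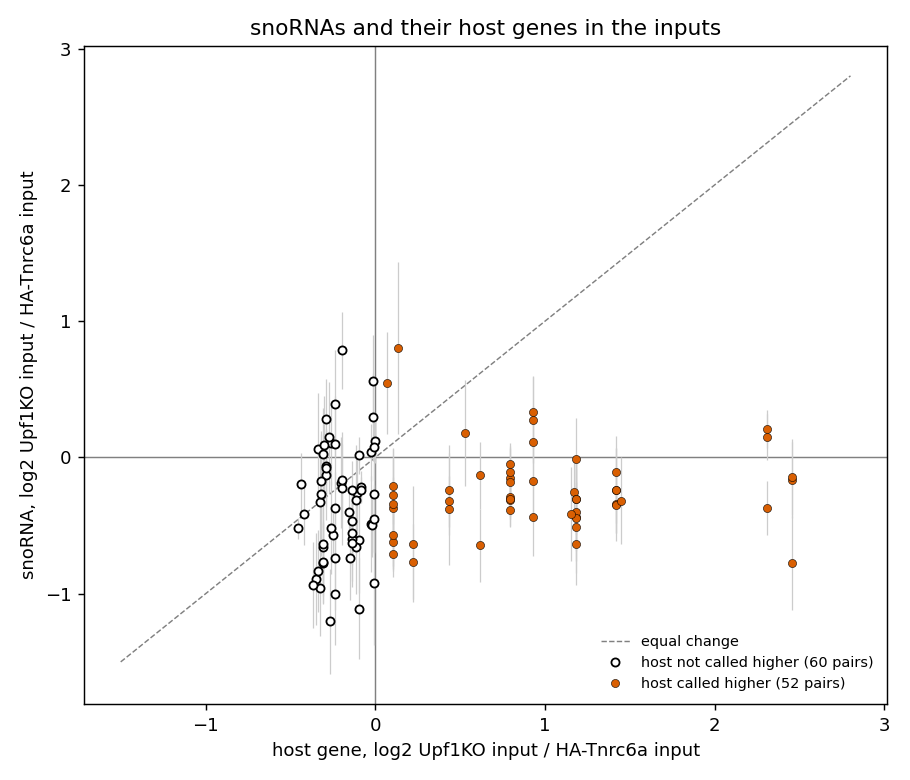
Log2 difference between inputs labelled Upf1 knockout and HA-Tnrc6a inputs of a snoRNA (y) against that of its host transcript (x), with standard errors; orange points are the 52 pairs whose host is higher at an adjusted p under 0.05, open points the other 60, and the dashed line is equal change. The orange points spread to host values of 2.45, with no snoRNA among them called higher.

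The difference between snoRNA and host was tested for each pair, with the log2 ratio of their counts in each input (pseudocount 0.5) and an exact two-sided permutation of the genotypes within the library sets. The 400 arrangements allow no p below 0.005. Of 112 pairs, 49 had an unadjusted p under 0.05, with the ratio lower in 48 and higher in 1, and 30 were at the smallest p the design allows. Of the 48, 41 had a host that was higher and 7 did not. The host's own rise enters this ratio. The 112 pairs share 57 hosts, and pairs within 1 host share its counts, so these counts of pairs are not counts of independent results. The median difference of the ratio was -1.09 in the 52 pairs with a higher host and -0.17 in the other 60. The ratio of Snord12 to Zfas1 differed by -2.09, that of Snord22 to Snhg1 by -1.69 and that of Snord47 to Gas5 by -1.02 (each at the smallest exact p, 0.005). For Snora15 and Cct6a it differed by -0.07 (exact permutation p = 0.335). Snord12 itself was at 1.62, 2.39 and 2.78 CPM in HA-Tnrc6a inputs and 2.25, 2.41 and 3.46 CPM in the others, 2 overlapping groups. Its log2 difference was 0.21 and that of Zfas1 2.31.

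The other inputs differed in few members. In Ago2 knockout inputs 10 were higher and 19 lower of 496 tested, where 15.7% and 15.2% of all transcripts were, and of 131 snoRNAs edgeR and DESeq2 called none (9 had an unadjusted p under 0.05 in edgeR). Endoderm markers were at 4.52 to 5.01 summed CPM in these inputs and 13.4 to 20.2 CPM in HA-Tnrc6a inputs, and neural markers at 83.5 to 102 CPM and 61.7 to 78.9 CPM, and their part in the results was not tested. The unclassified Gm44313 (-1.03 ± 0.19, adjusted p = 2.57e-05) and mt-Td (-0.81) fell, and Mir196a-1 (0.96) and Gm23497 (0.31 ± 0.08) rose. Gm22721 fell (-0.81) but stood at -0.50 (adjusted p = 0.104) without library 3 of the HA-Tnrc6a inputs. Between untagged and HA-Tnrc6a inputs 6 members were higher and 2 lower of 474, against 7.67% and 7.74% of all transcripts. The lower ones were ND4L (-0.70) and Gm10222 (-0.68). Gm22270 (0.85), Gm17711 (0.62) and Gm22133 (0.14) lost their calls without library 3 of the HA-Tnrc6a inputs, at 0.75, 0.54 and 0.13 (adjusted p = 0.0848, 0.0898 and 0.0577).

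The proteins that work with these RNAs were read from the same fits. Of 8 genes of snoRNA particle proteins, 7 were lower in enrichment with Tnrc6a (median -0.63), where 29.8% of all transcripts were higher and 32.2% lower. In inputs labelled Upf1 knockout 2 were higher and 5 lower, where 29.5% and 29% of all transcripts were. In the untagged IP 2 were higher and 3 lower, where 18% and 17.8% of all transcripts were. All 7 genes tested for Sm proteins, which bind small nuclear RNAs, were lower in enrichment (median -0.80). Of 6 genes for proteins of the signal recognition particle 1 was higher and 4 lower there, and 3 were higher in the untagged IP. These are messenger RNAs of the proteins, and the proteins themselves were not measured.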

How the data were processed

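The authors deposited raw counts per gene for 48 libraries in a single table, with row lengths, per the file headers. Per the submitters' processing notes, reads came through bcl2fastq 2.20 and STAR 2.7.3a on GRCm38 (mm10). The strand setting of counting is not given in the sources used here, so reads of overlapping genes cannot be told apart. Rows all reached 11 counts in some library, and 48 RPKM columns were not used. Column numbers 1 to 3 and 4 to 6 were taken as library sets and not matched to the labelled experiments.

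All genes were fitted with edgeR 4.0.16 (limma 3.58.1, R 4.3.3), with TMM scaling, filterByExpr (minimum count 10), robust quasi-likelihood tests with only the groups of a comparison, and contrasts averaged over both sets. Benjamini-Hochberg adjusted p-values over all genes tested were called under 0.05. The fit was also run on simulated counts. Apart from depth these held no difference between library sets, unlike the data, and no result here rests on them. The standard error is the log2 difference over the square root of F. CPM used TMM over all 48 libraries. Python 3.11.15 with pandas 2.3.3, SciPy 1.17.1 and matplotlib 3.10.9 did the rest. Depth sets the counting error, and without molecular identifiers several reads may come from 1 molecule. Hosts are genes spanning at least 1000 bases that contain a member in RefSeq, on either strand and whichever exon or intron it lies in. Lengths and RefSeq intervals can differ by annotation. Of 6 symbols, each is carried by 2 members.

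Members named were Rmrp, Rn7s1, Rn7s2 and Scarna13, the 3 most abundant of each class and the 5 most abundant hairpins in inputs, the 3 rows nearest each side of the length limit, and up to 5 per direction with the largest change among those called, which had the same sign in both sets and a mean log2 CPM not below 0. Others, such as the microRNAs with printed sequences, hosts and members listed to complete a count, were chosen after their values were seen. Members and lists were chosen with earlier results of these data known. Alternatives were RLE size factors, library totals, TMM from long genes, no filter, DESeq2 1.42.0, each library set alone, all 48 libraries in 1 fit, a replicate block, IPs without inputs, and omission of single libraries.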

Additional observations from a re-analysis of the deposited data

Results flagged for a closer look

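In 312 sets of 6 libraries of 1 group, the highest or lowest library was set against the nearest of the others, and in 29 it stood apart by more than 0.625 of the group's range. Chance gives about 1 in 20 such sets. Values are CPM, with the nearest other library in brackets.

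Several belonged to library 3 of the HA-Tnrc6a inputs, with Rn7s1 at 16.1 (2.73), Rn7s2 at 18.5 (2.36), Rmrp (ENSMUSG00000088088) at 4.51 (0.690), Mir6236 at 43.8 (5.88) and the summed hairpins at 168 (137). Among the other HA-Tnrc6a inputs, Mir6340 was lowest in library 1 at 0.491 (1.10), n-R5s185 highest in library 1 at 0.437 (0.179) and Snora15 highest in library 2 at 11.75 (10.3). In HA-Tnrc6a IPs, library 1 held Rn7s1 at 4.82 (0.918) and Rn7s2 at 4.35 (1.13).

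In untagged IPs, library 1 held Mir6236 at 41.4 (6.28), Mir363 at 1.96 (0.921) and a hairpin sum of 195 (160). Library 3 held Rmrp at 1.41 (0.302), library 4 Snord80 at 13.9 (8.88) and library 5 Mir1902 at 0.290 (0.0882). In untagged inputs, Mir5113 was at 0.884 in library 3 (0.395), Gm22133 at 449 in library 1 (368), Mir6236 at 16.2 in library 5 (6.64), mt-Tg at 4.40 in library 4 (2.24), and Gm28030 was lowest in library 5 at 3.26 (3.68).

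In Ago2 knockout inputs, the summed mitochondrial tRNAs were at 21.9 in library 4 (19.0), Gm27957 at 0.705 in library 4 (0.338), Mir686 at 24.7 in library 3 (20.2) and Mir293 at 0.800 in library 5 (0.271). Among libraries labelled Upf1 knockout, Rmrp was at 0.826 in IP 3 (0.254), mt-Tg at 0.317 in IP 2 (0.189), Snord47 at 3.46 in input 1 (2.01) and Rn7s1 at 3.10 in input 5 (1.29).

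The library sets differed for 17 of the 496 members tested in the untagged IP against input, where 2.86% of all transcripts differed, and for none in the enrichment of HA-Tnrc6a cells (0.365% of all). In the untagged IP the log2 difference of libraries 4 to 6 less that of libraries 1 to 3 was -4.72 for Rn7s1 (adjusted p = 0.044, edgeR interaction term), -4.02 for Rmrp (ENSMUSG00000115420; adjusted p = 0.0401), 1.28 for Gm23212 (adjusted p = 0.00195), 1.23 for Snord22 (adjusted p = 0.0044), 1.03 for Snord12 (adjusted p = 0.0249) and 0.85 for Gm22357 (adjusted p = 0.0324). In inputs labelled Upf1 knockout against HA-Tnrc6a it was 0.91 for Gm27286 (adjusted p = 8.81e-05), which rose in both sets (1.87 and 2.77).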

How the results depend on the processing

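No named member that was called changed direction under an alternative. Named members that were not called were left out of this check. Among them, Rn7s1 had opposite signs in the 2 library sets of the untagged IP (2.20 and -2.52). Libraries 1 to 3 alone, with 3 libraries a group and less depth, called 67 members in place of 215 for the untagged IP against input, 134 in place of 291 for the enrichment of HA-Tnrc6a cells, 158 in place of 335 and 161 in place of 293 for the Ago2 and Upf1 knockout enrichments, 6 in place of 36 and 0 in place of 2 for their recovery, and 19 in place of 29, 82 in place of 138 and 1 in place of 8 for the inputs of Ago2 knockout, Upf1 knockout and untagged cells. Libraries 4 to 6 alone gave 15 for the untagged inputs and 0 for the Upf1 knockout recovery. That recovery count was 1 with RLE factors, 4 with library totals, 1 with no filter and 122 (41 higher, 81 lower) from IPs without inputs. IPs without inputs gave 94 (20 higher, 74 lower) for the Ago2 knockout recovery. All 48 libraries in 1 fit gave 19 for Ago2 knockout inputs and 3 for untagged inputs. Leaving out single libraries gave 183 to 223 for the untagged IP, 278 to 299 for the enrichment of HA-Tnrc6a cells, 30 to 42 for the Ago2 knockout recovery and 20 to 34 for the Ago2 knockout inputs, and without library 3 of the HA-Tnrc6a inputs 8 for untagged inputs, 135 for inputs labelled Upf1 knockout and 2 for their recovery. Library totals moved the median of all transcripts in the enrichment of HA-Tnrc6a cells from -0.10 to -0.25 and gave 331 calls there. The cause of these shifts was not tested.

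Same-numbered IP and input libraries deviated together with a mean correlation of 0.093 (-0.056 to 0.486). It was over 0.1 in 8 of 24 pairs, among them all 3 untagged pairs of libraries 1 to 3 (0.237 to 0.486), but in none of the untagged pairs of libraries 4 to 6, so the numbers were not taken to pair the libraries. A replicate block by column number gave 222 for the untagged IP, 286, 325 and 293 for the enrichments of HA-Tnrc6a, Ago2 and Upf1 knockout cells, 37 and 4 for the recoveries, and 36, 145 and 10 for the inputs of Ago2 knockout, Upf1 knockout and untagged cells. In comparisons of IP over input between genotypes, this block was common to the genotypes, so it did not pair an IP with its own input. Under the block 3 named results lost their call, Mir6236 in the enrichment of HA-Tnrc6a cells (-2.38, adjusted p = 0.0607) and ND4L and Gm10222 in the untagged inputs. Over 148 named results that were called, 3171 alternatives kept the call and 206 lost it, 108 of them by leaving out 1 library and 51 with libraries 1 to 3 alone. With a pseudocount of 1 or 0.1, 48 or 49 snoRNA and host pairs had an unadjusted exact p under 0.05 in place of 49. Members with few counts, a median of 18 per library, limit what could be called.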
